A study of Mus musculus with 12 samples.

Results

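10 genes that mark extracellular vesicles (EVs) or act in their formation and release were followed in 12 4T1 tumours: the tetraspanin genes Cd9, Cd63 and Cd81, the sorting genes Tsg101, Hgs, Pdcd6ip and Sdcbp, and the release genes Rab27a, Rab27b and Smpd3. They were chosen by name, with earlier results of these data known, and each value was summed over the transcripts that carry the gene's symbol. They are 10 of the 35897 gene symbols with a value. All 10 were among the 15471 genes that reached at least 10 estimated reads in at least 3 libraries and were tested.

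EVs are membrane-bound particles that cells release and that can carry RNA to other cells. Exosomes, one class of them, form when the membrane of an endosome buds inwards and are set free when that multivesicular endosome fuses with the plasma membrane, whereas other EVs bud directly from the cell surface. Tetraspanins are membrane proteins that gather partner proteins into patches and are enriched on EVs, the ESCRT machinery and the syntenin–ALIX pathway sort cargo and cut off the inward bud, RAB27 proteins bring multivesicular endosomes to the plasma membrane, and a neutral sphingomyelinase makes the ceramide used in a budding route that does not need ESCRT.

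The tumours grew from 100000 cells of 4T1, a mouse mammary carcinoma line derived from BALB/c mice, placed under the skin of one flank in female mice of that strain, aged 6 to 8 weeks. In every group, EVs from the mouse endothelial cell line MS-1 were injected beside the tumour from day 5, at 3 µg every 2 days, and RNA was taken on day 21. The groups differed in the miRNA mimic electroporated into these EVs: cel-miR-67, a nematode miRNA used as control (ctrl), or miR-142-5p, or miR-183-5p, or miR-222-3p, with 3 tumours each. This order of the 3 mimics is kept wherever 3 values against ctrl are given without names. Since all 4 groups received EVs, the comparisons address the mimic and not the EVs themselves. The RNA was that of whole tumours, which hold host cells beside the injected line, so fewer cells of a type and less RNA per cell cannot be told apart. mRNA was measured, and neither vesicle number nor protein.

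Libraries held between 20285968 and 27021401 estimated reads. Markers of carcinoma cells were present in every tumour, with Epcam between 69.7 and 125 TPM (a level corrected for transcript length and scaled to the same sum in every library) and Krt8 between 481 and 732 TPM, although Cldn3 of the same list stayed under 1 TPM. Markers of macrophages and endothelial cells were also present throughout, and of 6 keratinocyte markers Krt14 (6.74 to 37.4 TPM) and Krt10 (3.51 to 5.32 TPM) were present in every tumour, while Krt1, Lor, Krt5 and Trp63 stayed under 1 TPM. miR-142-5p tumour 3 stood apart, with a summed level of 4 B-cell markers of 419 TPM against at most 2.79 TPM elsewhere, and its 7 T-cell markers summed to 236 TPM against at most 88.1 TPM. miR-183-5p tumour 3 held 367 TPM of 7 skeletal muscle markers against at most 26.4 TPM elsewhere. In 4 libraries, all those of miR-222-3p and miR-183-5p tumour 3, the share of Gm28661 in the reads of Gm28661 and mt-Co2 together was under 1%, against 7.13% to 41.8% in the other 8. No miR-222-3p library lies on the other side of this split, so a term for it in the fit rests on the miR-183-5p tumours alone, and within the miR-222-3p group the 2 cannot be told apart.

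As the mimics pair with mRNAs mainly through their seed (bases 2 to 8 from the 5′ end), the 3 mature miRNAs are shown with the seed in capitals, as listed by RefSeq for GRCm38.p6. The sequence of cel-miR-67 was not used here.
miR-142-5p: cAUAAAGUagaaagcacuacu
miR-183-5p: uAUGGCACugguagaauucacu
miR-222-3p: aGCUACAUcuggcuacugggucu

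None of the 3 shares its seed with another. The 3′ UTR of each gene's most abundant coding transcript was searched, on the transcript strand, for the complement of the seed (ACTTTAT for the first miRNA, GTGCCAT for the second and ATGTAGC for the third), counting a match followed by A as an 8mer. A miR-142-5p match was found in 2 of the 10 genes, Pdcd6ip and Sdcbp, and a miR-183-5p match in 2, Pdcd6ip and Smpd3. A miR-222-3p match was found in 0 of the 10. Over the 14610 tested genes with such a 3′ UTR, 14.2%, 9.30% and 9.56% held a match to these 3 miRNAs in the same order. The matches are given with their flanks because they are possible places of pairing between an injected mimic and an mRNA studied here. Shorter matches, other transcripts and sequence outside the 3′ UTR were not searched. For Hgs, the transcript searched, Hgs-202, has another length in the annotation than in the deposited values. The capitals mark the match, and the coordinates (GRCm38) are those of the printed stretch.
Pdcd6ip, miR-142-5p 8mer, chr9:113654628-113654649, minus strand: aaattagcatACTTTATAagat
Sdcbp, miR-142-5p 7mer, chr4:6395567-6395587, plus strand: tggcaatgacACTTTATgatt
Pdcd6ip, miR-183-5p 7mer, chr9:113652960-113652980, minus strand: ctcaggctagGTGCCATtaag
Smpd3, miR-183-5p 7mer, chr8:106255010-106255030, minus strand: tgcctgaccaGTGCCATtctt

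The 3′ UTR of Pdcd6ip is long, at 3189 bases against a median of 962 over all genes searched. Among the 721 3′ UTRs within 10% of its length, 30.0% held a miR-142-5p match and 20.2% a miR-183-5p match. For the 2711 bases of Smpd3 the share with a miR-183-5p match was 16.8% of 798 3′ UTRs, and for the 1091 bases of Sdcbp the share with a miR-142-5p match was 11.6% of 1006. A match is a stretch of letters and was not tested as a site of pairing.

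None of the 10 genes passed the test between any groups. In DESeq2's Wald test, with Benjamini-Hochberg adjustment over all genes, 0 of the 10 had an adjusted p under 0.05 in any of the 3 comparisons with ctrl, where the shares of all genes that passed were 0.00648%, 0% and 0.0259%. The same count of 0 held between the miRNA groups, where the share was 0.0519% for miR-183-5p versus miR-142-5p, 0.0324% for miR-183-5p versus miR-222-3p and 0.0389% for miR-142-5p versus miR-222-3p. The likelihood ratio test over the 4 groups also called 0 of the 10, against 0.0584% of all genes, and 0 of the 10 had an unadjusted p under 0.05 in it, against 4.75% of all genes. At an unadjusted p under 0.05, the count for DESeq2 was likewise 0 of 10 in each of the 6 comparisons, where 2.31% to 7.94% of all genes had one. With edgeR's quasi-likelihood test it was 1, Smpd3 in miR-183-5p versus miR-142-5p (7.32% of all genes there), and with limma it was 1, Tsg101 in miR-142-5p versus miR-222-3p (2.68% of all genes). These counts speak of what passed a test with 3 tumours a group; how large a difference the data still allow is given by the intervals of each gene.

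**Figure D1:**
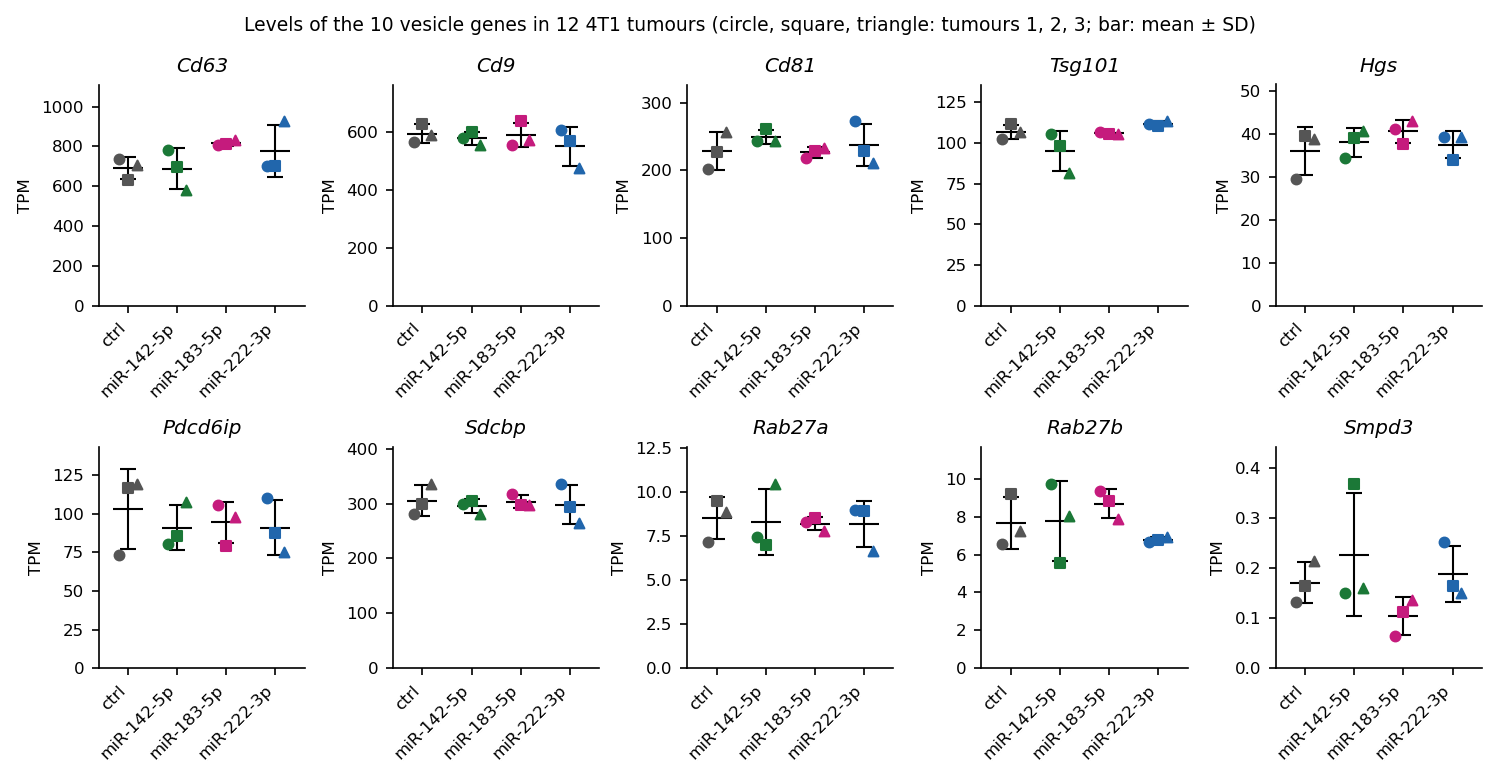
TPM of each of the 10 genes (vertical axes from 0) in the 3 tumours of each group, with symbols for tumours 1 to 3 and bars for the mean ± SD. Cd63 in the 3 miR-183-5p tumours sits between 807 and 830 TPM, above the ctrl tumours, and Smpd3 stays under 0.4 TPM in every tumour.

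The levels of the genes spanned over 3 orders of magnitude in TPM, and their order was nearly fixed. In all 12 tumours Cd63 was highest, then Cd9, Sdcbp and Cd81, with Hgs, the Rab27 genes and Smpd3 at the lower end. Neighbours changed places in 2 spots of this order. Tsg101 was above Pdcd6ip in 9 of 12 tumours, with a ratio between 0.756 and 1.51, and Rab27a was above Rab27b in 7 of 12, with a ratio between 0.763 and 1.34. Cd63 and Cd9 came as close as a ratio of 1.01 in ctrl tumour 2, and as far apart as 1.94 in miR-222-3p tumour 3. The SD of log2(normalised count + 1) over the 12 tumours was below the median of all tested genes (0.23) for 7 of the 10. By definition, as many tested genes lie below this median as above it. The exceptions were Smpd3 (0.56), Rab27b (0.26) and Cd63 (0.24). The SD was lowest for Sdcbp (0.08), lower than in all but 2.24% of tested genes, and for Cd81 (0.10). These comparisons were not matched for read count, on which this SD depends.

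Cd63 (chr10:128900989-128912822, plus strand) encodes a tetraspanin of late endosomes and lysosomes that is used as an exosome marker. Its level was 737, 631 and 707 TPM in ctrl tumours 1 to 3, 783, 699 and 579.7 TPM in the miR-142-5p tumours, 807, 812 and 830.4 TPM in those given miR-183-5p, and 703, 702 and 925 TPM in those given miR-222-3p. The miR-183-5p tumours were all above the ctrl tumours, whereas the other groups overlapped with ctrl, and the highest and lowest values were those of miR-222-3p tumour 3 and miR-142-5p tumour 3. In miR-183-5p tumours, Cd63 stood at 1.19 times the ctrl level (95% interval 0.926 to 1.54; log2 fold change 0.26, SE 0.19; DESeq2, unadjusted p = 0.172). The log2 fold change was 0.01 (SE 0.19) in miR-142-5p and 0.17 (SE 0.19) in miR-222-3p tumours. The latter rested on 1 tumour, since it was -0.03 without miR-222-3p tumour 3. Without miR-142-5p tumour 3, the value for miR-142-5p was 0.16. Cd63 was 1 of 3 genes among the 10 whose normalised counts did not overlap between miR-183-5p and ctrl tumours, together with Hgs and Smpd3, where 9.2% of all tested genes did not overlap. Neutrophil markers were also higher in this comparison: all 8 had a higher mean in the miR-183-5p tumours, 1 of them without overlap. Their summed level was 2413 to 3437 TPM there against 1493 to 2171 TPM in ctrl. The summed level of 7 fibroblast markers was 932 to 1127 TPM against 407 to 924 TPM, with 6 of 7 higher on average, and 9 of 10 macrophage markers were lower on average, with sums of 1889 to 3190 TPM against 2839 to 4425 TPM. In other lists, 5 of 5 erythroid, 7 of 7 skeletal muscle, 2 of 7 carcinoma and 0 of 7 endothelial markers were higher on average. Over the 12 tumours Cd63 and the neutrophil score had r = 0.73 (given with its test beside the other marker scores). The part of any of these cell types in the difference between the groups was not tested.

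Cd9 (chr6:125460266-125494791, minus strand) encodes a tetraspanin of the plasma membrane that is found on EVs of many cell types. Its level was 565, 627 and 587 TPM in ctrl, 578, 599 and 554 TPM in miR-142-5p, 555, 635 and 573 TPM in miR-183-5p, and 606, 569 and 476 TPM in miR-222-3p tumours. All groups overlapped, and only miR-222-3p tumour 3 lay below 550.1 TPM. The log2 fold changes against ctrl were -0.02, 0.01 and -0.12 (SE 0.11 each), and the 95% intervals ran from 0.789-fold to 1.17-fold.

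Cd81 (chr7:143052739-143067934, plus strand) encodes a tetraspanin of the cell surface that takes part in immune cell receptor complexes and is a common EV marker. It stood at 202, 227 and 257 TPM in ctrl, 243, 261 and 243 TPM in miR-142-5p, 218, 228 and 234 TPM in miR-183-5p, and 272, 228 and 211 TPM in miR-222-3p tumours. The lowest tumour was ctrl tumour 1, the highest miR-222-3p tumour 1, and all groups overlapped. Of the 3 log2 fold changes against ctrl, that of miR-142-5p was the largest, at 0.14 (SE 0.10; fold 1.10, 95% interval 0.961 to 1.27; DESeq2, unadjusted p = 0.163). Cd81 was the tetraspanin gene with the most mixed transcripts. Its main transcript, Cd81-201, gave 76.9% of its TPM and ranged from 69.4% to 88.4% between tumours, both extremes being ctrl tumours, and Cd81-204 gave 13.5%. For comparison, Cd9-201 gave 98.9% of the TPM of Cd9 and Cd63-201 gave 95.2% of that of Cd63.

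Tsg101 (chr7:46888949-46919969, minus strand) encodes an ESCRT subunit that binds ubiquitinated cargo and is also used as an EV marker. Its level was 103, 111 and 106 TPM in ctrl, 105, 97.8 and 81.4 TPM in miR-142-5p, 106, 106 and 106 TPM in miR-183-5p, and 112, 110.1 and 113 TPM in miR-222-3p tumours. A single tumour stood out, miR-142-5p tumour 3 with the lowest value, and it is the tumour rich in B-cell and T-cell markers. The SD over the 3 miR-183-5p tumours was 0.441 TPM. Tsg101 was 0.901 times the ctrl level in miR-142-5p tumours (95% interval 0.745 to 1.09; log2 fold change -0.15, SE 0.14), and this value came to -0.01 (SE 0.11) without tumour 3 but to -0.28 without tumour 1 (SE 0.14; DESeq2, unadjusted p = 0.0377, Benjamini-Hochberg adjusted p = 0.770). Against miR-222-3p tumours, the log2 fold change of miR-142-5p was -0.21 (SE 0.14; DESeq2, unadjusted p = 0.132), and came to -0.07 without tumour 3 and -0.34 without tumour 1 (SE 0.14; DESeq2, unadjusted p = 0.0116, Benjamini-Hochberg adjusted p = 0.412). The values for miR-183-5p (0.01, SE 0.14) and miR-222-3p (0.06, SE 0.14) against ctrl were smaller than their errors.

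Hgs (chr11:120467635-120483979, plus strand) encodes HRS, which recruits the ESCRT machinery to ubiquitinated cargo on endosomes. It stood at 29.6, 39.5 and 38.9 TPM in ctrl, 34.3, 38.99 and 40.8 TPM in miR-142-5p, 41.1, 37.7 and 42.9 TPM in miR-183-5p, and 39.3, 33.96 and 39.2 TPM in miR-222-3p tumours. In TPM the groups overlapped, with ctrl tumour 1 the lowest of all 12. In normalised counts, which correct for library size, the miR-183-5p tumours (1757, 1675 and 1869.7) were all above the ctrl tumours (1382, 1657 and 1572), by a narrow margin between the nearest tumours. The fold was 1.15 (95% interval 0.987 to 1.34; log2 fold change 0.20, SE 0.11; DESeq2, unadjusted p = 0.0739), the lowest unadjusted p of any of the 10 genes against ctrl. The log2 fold change was 0.16 without miR-183-5p tumour 3 and 0.13 to 0.26 over all alternatives. It was 0.10 (SE 0.11) in miR-142-5p and 0.06 (SE 0.11) in miR-222-3p tumours. Almost all of the level of Hgs came from 2 coding transcripts of nearly equal length, Hgs-202 (63.4%) and Hgs-201 (31.0%).

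**Figure D2:**
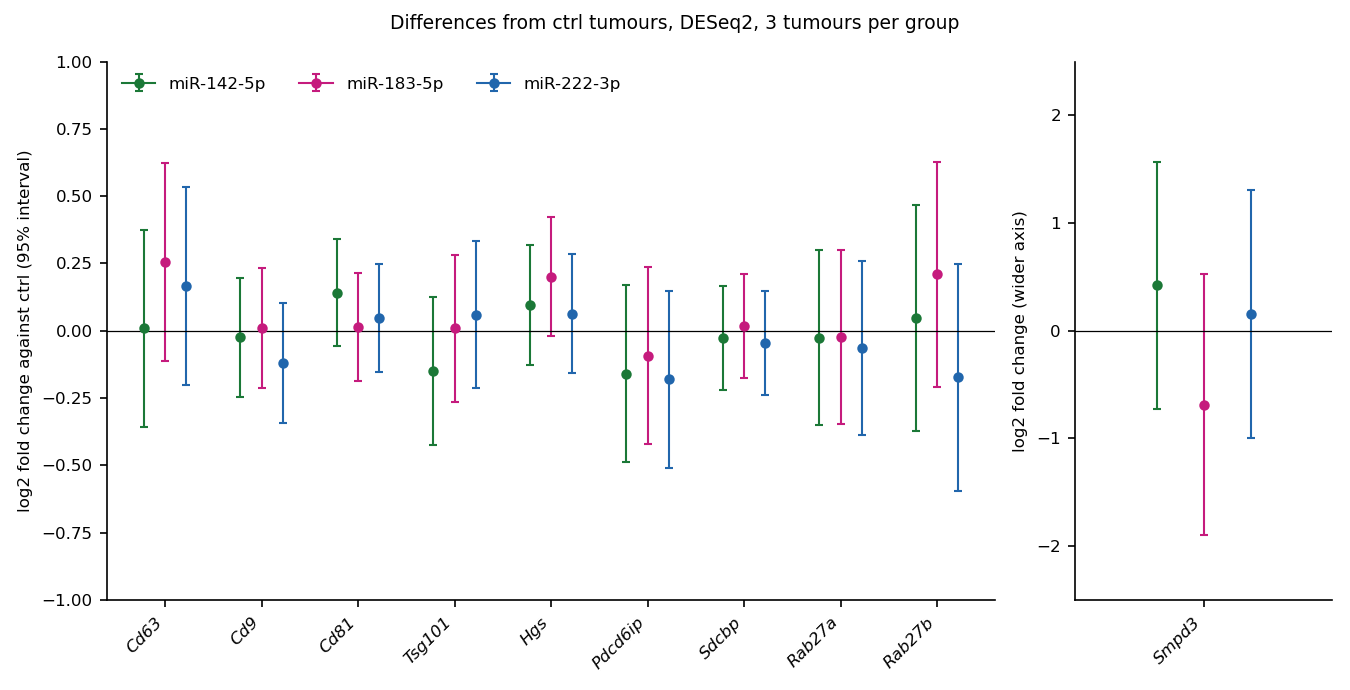
Log2 fold change of each gene against ctrl (vertical axes) with 95% intervals from DESeq2, for the 3 mimic groups of 3 tumours each; Smpd3 has an axis of its own because its intervals are wider. All 30 intervals include 0, and apart from Smpd3 the widest limits are those of Rab27b, at -0.59 and 0.63.

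Pdcd6ip (chr9:113651744-113708259, minus strand) encodes ALIX, which links syntenin to the ESCRT machinery. Its level was 73.4, 116 and 119 TPM in ctrl, 80.2, 85.4 and 108 TPM in miR-142-5p, 106, 79.3 and 98.1 TPM in miR-183-5p, and 110.03, 87.6 and 75.1 TPM in miR-222-3p tumours. The ctrl group held both the lowest and the highest of the 12 values, and all groups overlapped. The log2 fold changes against ctrl were -0.16, -0.09 and -0.18 (SE 0.17 each). The 3′ UTR of its coding transcript of 5951 bases carries a match to the seeds of both miR-142-5p and miR-183-5p. Its other transcripts were not searched. The intervals of these 2 comparisons ran from 0.713-fold to 1.13-fold and from 0.746-fold to 1.18-fold. They are those of all transcripts together and not of the transcript with the matches. The level of Pdcd6ip was split between a coding transcript of 5951 bases (39.3%), a coding transcript of 3223 bases (37.0%) and a retained-intron transcript of 572 bases (15.2%). The share of the last ranged from 5.09% in miR-222-3p tumour 3 to 19.7% in miR-142-5p tumour 2, and as a short transcript it weighs more in TPM than in reads.

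Sdcbp (chr4:6365650-6408423, plus strand) encodes syntenin, which ties syndecans and other cargo to ALIX. It stood at 281, 299 and 336 TPM in ctrl, 300.1, 305 and 282 TPM in miR-142-5p, 317, 297 and 298 TPM in miR-183-5p, and 336, 294 and 264 TPM in miR-222-3p tumours. These were among the steadiest values of the set, with all groups overlapping. The 3 log2 fold changes against ctrl lay between -0.04 and 0.02 (SE 0.10 each), and their 95% intervals between 0.848-fold and 1.16-fold. For miR-142-5p, whose seed matches the 3′ UTR of Sdcbp, the interval was 0.858-fold to 1.12-fold. Most of the level came from 2 coding transcripts, Sdcbp-202 with 78.1% and Sdcbp-201 with 18.5%.

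Rab27a (chr9:73044854-73097629, plus strand) encodes a small GTPase that docks multivesicular endosomes and secretory granules at the plasma membrane. Its level was 7.16, 9.47 and 8.85 TPM in ctrl, 7.44, 6.98 and 10.46 TPM in miR-142-5p, 8.30, 8.52 and 7.77 TPM in miR-183-5p, and 8.94, 8.90 and 6.64 TPM in miR-222-3p tumours. The highest value was that of miR-142-5p tumour 3 and the lowest that of miR-222-3p tumour 3, and the group means were within 0.4 TPM of each other. The log2 fold changes against ctrl were -0.03, -0.02 and -0.06 (SE 0.17 each). Rab27a-201 gave 81.0% of the level and Rab27a-203 gave 11.5%.

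Rab27b encodes the paralogue of Rab27a, which also acts in EV release. It stood at 6.54, 9.21 and 7.23 TPM in ctrl, 9.75, 5.58 and 8.01 TPM in miR-142-5p, 9.38, 8.84 and 7.86 TPM in miR-183-5p, and 6.69, 6.75 and 6.92 TPM in miR-222-3p tumours. The miR-142-5p group held both the highest and the lowest of the 12 values, whereas the 3 miR-222-3p tumours were close together and all below the miR-183-5p tumours. Rab27b was 1.30 times as high in miR-183-5p as in miR-222-3p tumours (95% interval 0.975 to 1.74; log2 fold change 0.38, SE 0.21; DESeq2, unadjusted p = 0.0737). In this comparison 2 of the 10 genes did not overlap in normalised counts, Rab27b and Smpd3, against 9.06% of all tested genes. Against ctrl, the log2 fold changes were 0.05, 0.21 and -0.17 (SE 0.21 each). The value for miR-142-5p turned to -0.21 without its tumour 1. With the 2 library sets as a term, the difference between miR-183-5p and miR-222-3p came to 0.24 (SE 0.31; DESeq2, unadjusted p = 0.449) and that of miR-222-3p against ctrl to 0.04 (SE 0.40). Inside a group, this term compares only miR-183-5p tumour 3 with miR-183-5p tumours 1 and 2. Since tumour 3 also held the high skeletal muscle markers, the library set and that tumour cannot be told apart. Within tumours, Rab27b was above Rab27a in 0 of 3 ctrl tumours, in 1 tumour of the miR-142-5p group, in all 3 given miR-183-5p and in 1 given miR-222-3p, and its ratio to Rab27a ranged from 0.748 to 1.31.

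Smpd3 (chr8:106252548-106337988, minus strand) encodes neutral sphingomyelinase, which makes ceramide from sphingomyelin. Hardly any reads were assigned to it, between 6 and 24 per library. Its level was 0.132, 0.165 and 0.214 TPM in ctrl, 0.151, 0.369 and 0.160 TPM in miR-142-5p, 0.0641, 0.112 and 0.137 TPM in miR-183-5p, and 0.253, 0.164 and 0.150 TPM in miR-222-3p tumours. The miR-142-5p mean rested on tumour 2, and in normalised counts the miR-183-5p tumours (4.95, 9.19 and 10.7) were all below the ctrl (10.7, 12.3 and 16.2), the miR-142-5p (12.8, 29.1 and 11.5) and the miR-222-3p tumours (18.7, 12.6 and 12.6). The nearest miR-183-5p and ctrl tumours differed by less than 1 normalised count, and in TPM these 2 groups overlapped. The log2 fold change of miR-183-5p was -0.69 (SE 0.62; fold 0.622, 95% interval 0.269 to 1.44) against ctrl. It was -1.11 (SE 0.60; fold 0.464, 95% interval 0.205 to 1.05; DESeq2, unadjusted p = 0.066, Benjamini-Hochberg adjusted p = 0.685) against miR-142-5p, where Smpd3 was the 1 gene of the 10 without overlap, against 12.4% of all tested genes. At this depth, the data still allowed differences of Smpd3 up to the limits of these intervals. The gene overlaps Prmt7 on the opposite strand.

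For the other 9 genes the data set narrower limits. All 27 intervals against ctrl included 0 and spanned folds from 0.663 to 1.55, and 24 of them lay within a 1.5-fold change in either direction. Over all 6 comparisons this was 48 of 54, and the widest limits, 0.663-fold and 1.74-fold, were both those of Rab27b. In 3 comparisons, of miR-142-5p and of miR-222-3p with ctrl and of these 2 with each other, 0 of the 10 genes were without overlap in normalised counts, where 6.08%, 5.53% and 6.21% of all tested genes did not overlap. The median log2 fold change of the 10 genes was -0.0080, 0.012 and 0.0015 against ctrl, and that of all tested genes was -0.0049, -0.011 and -0.0079.

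To see how the genes varied together, correlations of log2(normalised count + 1) over the 12 tumours were computed for all 45 pairs and tested by 100000 permutations (two-sided). With Benjamini-Hochberg adjustment, 0 of 45 passed for both Pearson's r and Spearman's rho, and 5 had an unadjusted p under 0.05 for r. The paralogues Rab27a and Rab27b had r = 0.30 (permutation p = 0.343, adjusted 0.804) and rho = 0.15 (p = 0.649, adjusted 0.838). The surface tetraspanins Cd9 and Cd81 had r = 0.32 (permutation p = 0.306, adjusted 0.804) and rho = 0.20 (p = 0.542, adjusted 0.838). For the partners ALIX and syntenin, Pdcd6ip and Sdcbp had r = 0.06 (permutation p = 0.840, adjusted 0.889) and rho = 0.15 (p = 0.647, adjusted 0.838). The ESCRT genes Tsg101 and Hgs had r = -0.05 (permutation p = 0.869, adjusted 0.889) and rho = -0.06 (p = 0.869, adjusted 0.986). Without the 2 tumours farthest from the median of the first gene, r came to 0.40, 0.27, 0.03 and -0.33 for these 4 pairs, and within the 8 libraries with the higher Gm28661 share to 0.42, 0.28, -0.24 and -0.22. The pairs named next were chosen after their values were seen. Cd81 and Smpd3, the latter with few reads, had r = 0.72 (permutation p = 0.0041, adjusted 0.0922) and rho = 0.70 (p = 0.0148, adjusted 0.241). For this pair r was 0.66 without miR-142-5p tumours 1 and 2, 0.74 within the 8 libraries and 0.73 in log2(TPM + 1). Cd63 and Tsg101 had r = 0.76 (permutation p = 0.00179, adjusted 0.0805) and rho = 0.64 (p = 0.0289, adjusted 0.241). Without miR-142-5p tumour 3 and miR-222-3p tumour 3, the 2 with the most extreme Cd63 values, r was 0.44 (permutation p = 0.200). With any 1 tumour left out it was 0.64 to 0.86, within the 8 libraries 0.79 and in log2(TPM + 1) 0.56. Rab27b and Smpd3 had r = -0.71 (permutation p = 0.0077, adjusted 0.115) and rho = -0.64 (p = 0.0272, adjusted 0.241). Without miR-142-5p tumours 1 and 2, r was -0.78, and within the 8 libraries it was -0.70 (exact permutation p = 0.0518).

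**Figure D3:**
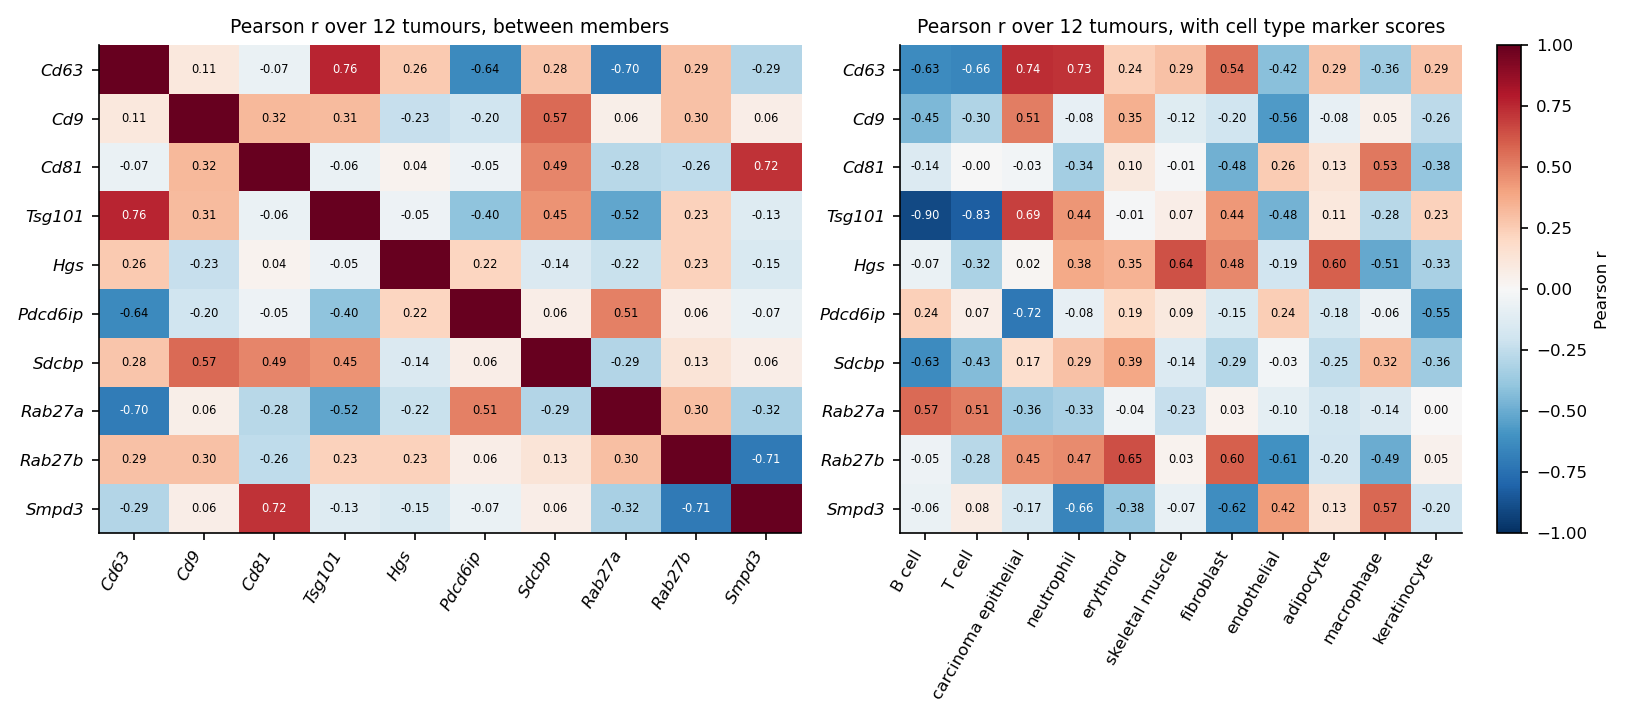
Pearson's r over 12 tumours, between the 10 genes (left) and between each gene and the scores of 11 cell type marker lists (right), with red for positive and blue for negative values. The strongest cell on the left is Cd63 with Tsg101 (0.76) and on the right Tsg101 with the B-cell score (-0.90).

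Each gene was also set against the scores of 11 marker lists (the mean log2(normalised count + 1) of a list), 110 relations in all. With Benjamini-Hochberg adjustment, 0 of 110 passed for both r and rho over the 12 tumours, and 16 had an unadjusted permutation p under 0.05 for r. All relations named here were chosen after their values were seen. Tsg101 with the T-cell score had r = -0.83 and rho = -0.49. Tsg101 with the carcinoma score had r = 0.69 and rho = 0.85 (permutation p = 0.00101 for rho, adjusted 0.111). Pdcd6ip with the carcinoma score had r = -0.72 (permutation p = 0.0104, adjusted 0.212) and rho = -0.72. In log2(TPM + 1), r came to -0.77, 0.40 and -0.49 in this order. The next 4 relations are given in more detail. Tsg101 and the B-cell score had r = -0.90 (permutation p = 0.0152, adjusted 0.212) but rho = -0.27 (p = 0.404, adjusted 0.766), and r = -0.20 without miR-142-5p tumour 3 and miR-222-3p tumour 3, so the value of r rested on the tumour rich in B-cell markers, which is also 1 of the 8 libraries (r = -0.93 there). Cd63 and the carcinoma score had r = 0.74 (permutation p = 0.0061, adjusted 0.212) and rho = 0.63 (p = 0.0315, adjusted 0.347). It was 0.60 without the same 2 tumours and 0.79 within the 8 libraries, but 0.40 in log2(TPM + 1). Cd63 and the neutrophil score had r = 0.73 (permutation p = 0.0079, adjusted 0.212) and rho = 0.69 (p = 0.0169, adjusted 0.309). Here r was 0.67 without the same 2 tumours, 0.67 within the 8 libraries and 0.73 in log2(TPM + 1). Cd9 and the carcinoma score had r = 0.51 (permutation p = 0.0904, adjusted 0.402) and rho = 0.62 (p = 0.0347, adjusted 0.347). Within the 8 libraries, however, r was 0.95 and rho was 1 (exact permutation p = 7.44e-05 for r, adjusted 0.00818), and without miR-222-3p tumour 3 r was 0.89 (permutation p = 2.4e-04, adjusted 0.0264), both past the threshold. That tumour had the third highest carcinoma score and the lowest Cd9 value. It is also absent from the 8 libraries, so both settings leave it out. With values centred on group means, r for Cd9 and the carcinoma score was 0.53 (permutation p = 0.0777, adjusted 0.371). The relation of Cd9 was also weaker on the other scale, with r = 0.16 in log2(TPM + 1).

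**Figure D4:**
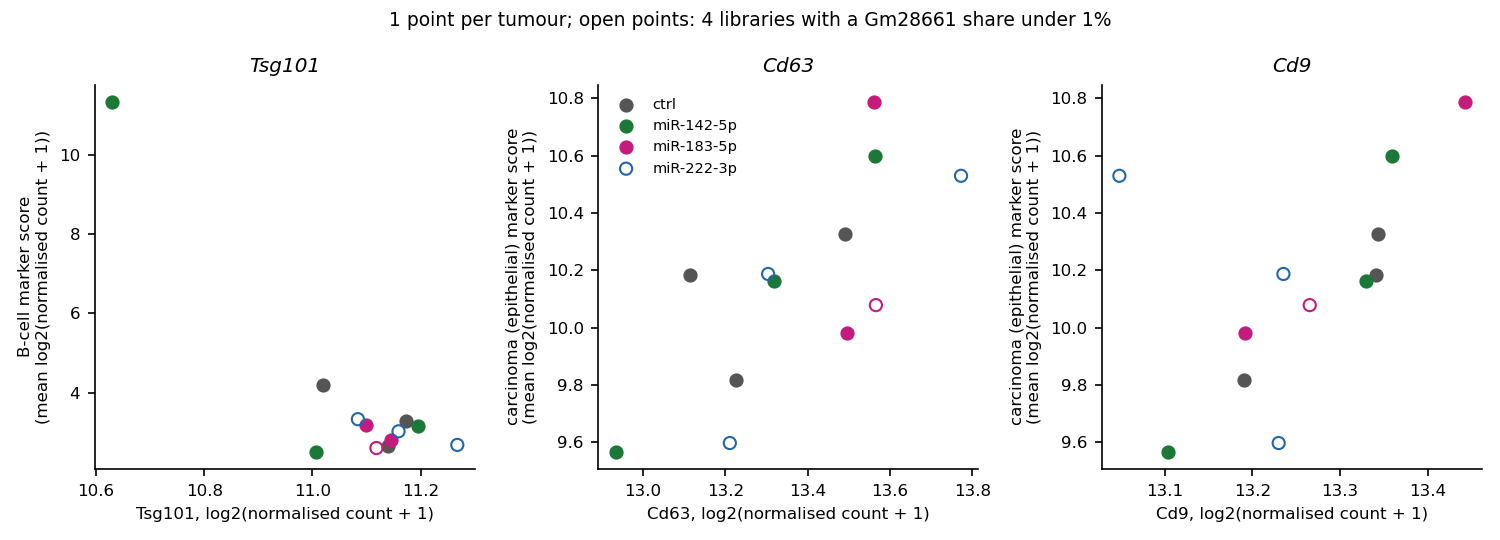
Marker score (vertical axes) against the level of Tsg101, Cd63 and Cd9 (horizontal axes), both as log2(normalised count + 1), with 1 point per tumour coloured by group and open points for the 4 libraries with a Gm28661 share under 1%. On the left 1 miR-142-5p tumour lies far from the other 11, and on the right the 8 filled points rise together while 1 open point lies at the lowest Cd9 value.

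The genes most like the 3 most variable members in their pattern over the 12 tumours were found among 11535 genes with a mean normalised count of at least 100, as a description without a test. For Cd63 they were Rab34 (r = 0.95), Commd2 (r = 0.94) and Pafah1b3 (r = 0.94). For Rab27b they were Vegfa (r = 0.91), Cenpp (r = 0.91) and Proser2 (r = 0.89). For Smpd3 they were mt-Nd5 (r = 0.92), Tnfrsf25 (r = 0.87) and Scamp2 (r = 0.87), on the few reads that Smpd3 has. All these r values are the highest over all genes compared and share the same 12 libraries.

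A wider list of 85 vesicle genes put the 10 in context: 12 further tetraspanins and partners, 27 ESCRT genes, 12 genes of the syndecan, heparanase and lipid routes, 25 Rab, SNARE and fusion genes and 9 cargo genes. All but Sytl5 passed the count minimum. In DESeq2's Wald test, 0 of the 84 had an adjusted p under 0.05 in any of the 6 comparisons, where the share of all genes called was at most 0.0519%. With an unadjusted p under 0.05 there were 2, 4 and 2 genes against ctrl, where 3.56%, 3.21% and 2.31% of all genes had one. Between miRNA groups the count was 7 in miR-183-5p versus miR-142-5p (7.94% of all genes), 0 in miR-183-5p versus miR-222-3p (3.24%) and 4 in miR-142-5p versus miR-222-3p (3.62%). edgeR and limma called 0 of the 84 in these comparisons as well. Without overlap against ctrl in normalised counts were 3, 9 and 7 of the 84, where 6.08%, 9.2% and 5.53% of all tested genes did not overlap. The median log2 fold change of the list against ctrl was 0.01, 0.03 and 0.04, beside the values for all genes given above.

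Among the ESCRT genes, Vps4a, the ATPase that takes the ESCRT filament apart, stood at 37.4, 38.9 and 40.1 TPM in ctrl and at 46.5, 42.7 and 47.7 TPM in miR-142-5p tumours. The 2 groups did not overlap, and the log2 fold change was 0.25 (SE 0.10; DESeq2, unadjusted p = 0.0133, Benjamini-Hochberg adjusted p = 0.9999). The value for miR-183-5p, which shares the ctrl tumours, was 0.26 (SE 0.10). In normalised counts, Vps4a in miR-222-3p tumours was also above all ctrl tumours, without an unadjusted p under 0.05 in DESeq2.

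Among the syndecan genes and their enzymes, Sdc3, a heparan sulphate core protein, was at 64.7, 79.7 and 78.2 TPM in ctrl and at 72.8, 65.5 and 53.6 TPM in miR-222-3p tumours. These overlapped in TPM but not in normalised counts, with a log2 fold change of -0.22 (SE 0.10; DESeq2, unadjusted p = 0.0245). Against the same ctrl tumours, Sdc3 was also lower without overlap in normalised counts in miR-183-5p tumours, with an unadjusted p under 0.05 in DESeq2. Hpse, the heparanase that trims syndecan chains, was at 13.2, 14.7 and 16.7 TPM in ctrl and at 11.03, 12.3 and 10.8 TPM in miR-183-5p tumours, and here the groups did not overlap (log2 fold change -0.36, SE 0.17; DESeq2, unadjusted p = 0.032). Pld1, a phospholipase that makes phosphatidic acid, had a log2 fold change of -0.32 (SE 0.15) in miR-142-5p against miR-222-3p tumours, with normalised counts that did not overlap.

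Among the tetraspanins, Tspan9 had a log2 fold change of 0.34 (SE 0.16; DESeq2, unadjusted p = 0.029) in miR-183-5p against ctrl tumours. Tspan6, which was at 4.02, 4.46 and 3.75 TPM in miR-142-5p, 9.34, 5.22 and 5.34 TPM in miR-183-5p and 5.61, 5.68 and 7.04 TPM in miR-222-3p tumours, was lowest in each of the 3 miR-142-5p tumours among these 9. In normalised counts, the ctrl tumours were all above the miR-142-5p tumours and all below the miR-183-5p and miR-222-3p tumours. Of all tested genes, 6.08%, 9.2% and 5.53% did not overlap with ctrl. In DESeq2, the unadjusted p of Tspan6 was not under 0.05 in any comparison with ctrl. The log2 fold change was 0.70 (SE 0.26; DESeq2, unadjusted p = 0.00692, Benjamini-Hochberg adjusted p = 0.336) for miR-183-5p versus miR-142-5p and -0.57 (SE 0.26) for miR-142-5p versus miR-222-3p. Cd37, a tetraspanin of B cells and other leucocytes, was at 107 TPM in miR-142-5p tumour 3 and at no more than 12.7 TPM in the other 11, and DESeq2 gave it no p-value, as it does for a gene with 1 extreme count among 3 replicates. It is named here after its values were seen. Coro1a, a leucocyte actin-binding protein found among EV cargo, was at 174, 179 and 429.8 TPM in miR-142-5p and at 165, 156 and 143 TPM in miR-183-5p tumours (log2 fold change -0.71, SE 0.25, for miR-183-5p versus miR-142-5p; DESeq2, Benjamini-Hochberg adjusted p = 0.275). Its highest value was also that of the tumour with the high B-cell and T-cell markers, whose part in the difference was not tested.

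**Figure D5:**
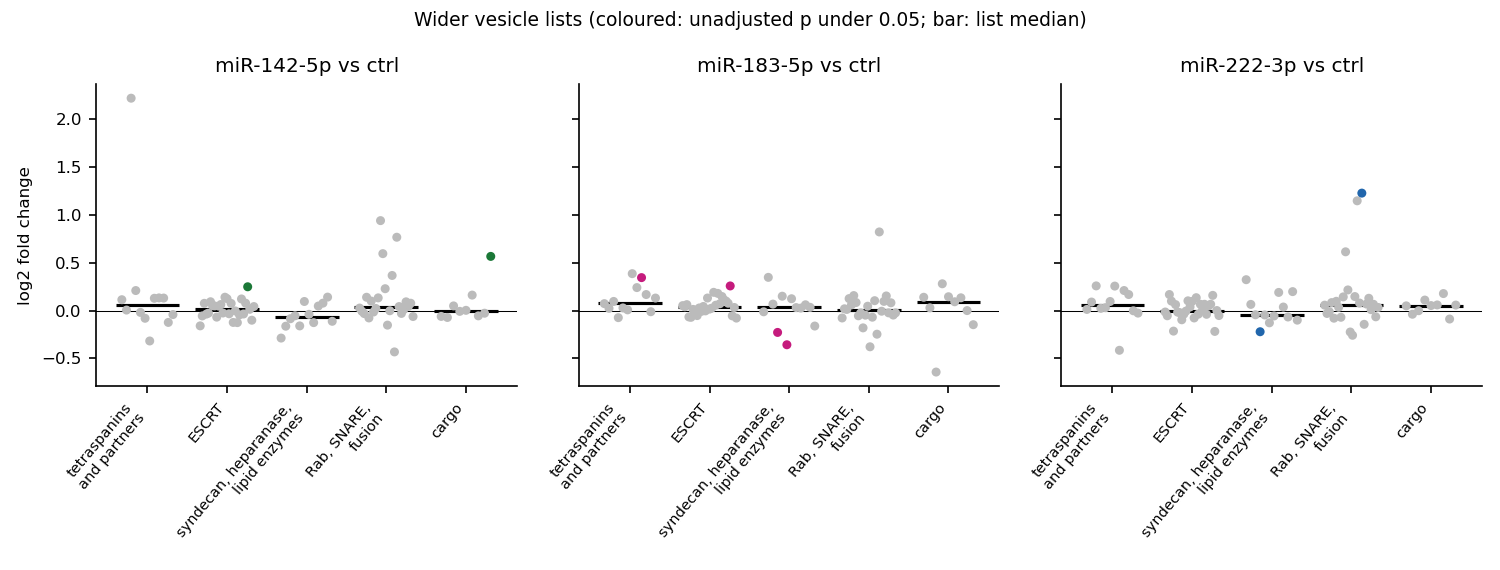
Log2 fold change against ctrl (vertical axis) of each gene of the 5 wider lists (horizontal axis), with bars for the list medians and colour for an unadjusted p under 0.05. Most points lie near 0, and the 1 point above 2 is Cd37 in the miR-142-5p tumours.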

How the data were processed

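RNA-Seq of poly(A) RNA (stranded, paired-end) was analysed from 12 tumours in 4 groups of 3, taken from the sample labels. The authors quantified reads per transcript with Salmon 0.8.2. The deposited tables give, for 118783 mouse transcripts, an estimated count (expected count) and a TPM value (the authors' program scales TPM to a fixed sum per library). Reads shared by transcripts were split by the program, so near-identical copies could share reads: BLAST 2.17.0 found pseudogenes of Tsg101 (97.9% identity over 1176 bases), Cd63 (98.0% over 858) and Cd9 (91.1% over 665) and a copy of a part of Sdcbp (95.3% over 320), whose own mean TPM was at most 0.0702. The methods name Ensembl release 90, and the release behind the tables may differ. Transcripts were matched by identifier to GENCODE M21 on GRCm38 (116710 of 118783, 98.3%; the rest held 0.633% to 0.671% of a library's reads and were not used) and summed by symbol. In GENCODE M21, 2 gene identifiers carry the symbol Hgs, and the files hold the transcripts of one set.

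Estimated counts were rounded and fitted with DESeq2 1.42.0 in R 4.3.3 (Wald test, unshrunken fold change; 12 tumours in 1 fit, group as the only factor, effective transcript length as offset). The count minimum was 10 reads in at least 3 libraries, which 15471 genes met, and 15424 received a p-value. P-values were adjusted by Benjamini-Hochberg over all genes, threshold 0.05; intervals are 95% and come from the fit. They give the uncertainty of a difference between 2 group means of 3 tumours each. The spread behind them is estimated once per gene over all 4 groups. Normalised counts are counts divided by size factor and length offset. Correlations used 100000 permutations, or all orders for the 8 libraries. The fit was tested on simulated data. Alternatives were edgeR 4.0.16 (quasi-likelihood, TMM), DESeq2 with TMM factors, other count filters (none, or at least 50 counts in every library), no length offset, limma 3.58.1 on log2(TPM + 1) and log2(TPM + 0.1), fits to 2 groups at a time, a block for the replicate number, the library set as a term, pseudogene copies added to their parents, a threshold of 0.1, each tumour left out in turn, and, added after seeing the data, miR-142-5p tumour 3 and miR-183-5p tumour 3 left out together.

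The members and lists were chosen with earlier results of these data known. Named beside the 10 genes are wider-list genes called in a contrast or, with none, the 2 with the largest change among those with an unadjusted p under 0.05, a mean count of at least 100 and no overlap; 4 pairs fixed by name; the 3 genes most like each of the 3 most variable members; and transcripts with at least 10% of a gene's TPM.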

Additional observations from a re-analysis of the deposited data

How the results depend on the processing

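The count of 0 of the 10 genes with an adjusted p under 0.05 held in every comparison and in the test over the 4 groups under each alternative run, including a threshold of 0.1. Smpd3 could not be called in all of these runs. It was not tested with at least 50 counts in every library. It also had no adjusted p in some fits, such as miR-183-5p versus miR-222-3p without tumour 3 of either group. Over 1074 values of a gene under an alternative, the lowest adjusted p was 0.308 (Rab27b, miR-183-5p versus miR-142-5p without miR-142-5p tumour 1). The sign of a fold change differed from the one reported in 99 of these 1074, and in 1 of these 99 the reported change was larger than its SE. With 3 tumours a group, these changes bound each difference no more closely than the intervals given.

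In the wider list, leaving out 1 tumour at a time gave between 0 and 3 genes called in miR-183-5p versus miR-142-5p. The 3, without miR-142-5p tumour 1, were Cd37 (log2 fold change -2.59), Coro1a (-0.90) and Sdc4 (0.43), or 3.57% of the list against 2.8% of all genes in that fit, which leaves the tumour rich in B-cell markers as 1 of 2 in its group. All other alternatives and comparisons gave 0. Among pairs of the 10 genes, 2 correlations passed when values were centred on group means (Cd63 with Tsg101, r = 0.83; Cd63 with Rab27a, r = -0.79), and between 0 and 1 passed without 1 tumour (Rab27b with Smpd3, without miR-142-5p tumour 1). With marker scores, 1 passed without the 4 libraries with the low Gm28661 share, and between 0 and 1 without 1 tumour, each time Cd9 with the carcinoma score.

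Counts over all genes were unstable. Called genes numbered 1, 0 and 4 against ctrl, in the order of the mimics used above, and ranged from 0 to 2, 0 to 37 and 0 to 16 over alternatives that kept every group complete or took out both odd tumours, and from 0 to 76, 0 to 15 and 2 to 6 without 1 tumour. Between miRNA groups, the 8 genes (miR-183-5p versus miR-142-5p), 5 genes (miR-183-5p versus miR-222-3p) and 6 genes (miR-142-5p versus miR-222-3p) ranged from 0 to 70, 0 to 33 and 0 to 21, and without 1 tumour from 0 to 415, 1 to 16 and 2 to 76. The highest counts of 76, 415 and 76 came without miR-142-5p tumour 1. Over the 4 groups, 9 genes became 0 to 32, and 3 to 240 without 1 tumour. edgeR called 0 genes in every comparison. At a threshold of 0.1 the counts were 1, 0, 7, 38, 6 and 8, and 19 over the 4 groups. The cause of these shifts was not tested.

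No pairing of the tumours by the replicate numbers that the groups share was seen in the residuals. Residuals of same-numbered tumours had a mean correlation of -0.04 (lowest -0.44), against 0.02 for different numbers. With the number as a replicate block, 0 of the 10 genes and 0 wider genes were called, and over all genes the counts moved from 0 to 1 for miR-183-5p against ctrl, from 5 to 9 in miR-183-5p versus miR-222-3p and from 9 to 5 over the 4 groups.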
